A study of Mus musculus with 18 samples.

Results

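The integrin and laminin chain genes described here are 37 genes whose symbols name an integrin alpha or beta subunit or a laminin alpha, beta or gamma chain. They were taken from the count tables by symbol, with the Itgb1bp, Itgbl and Itgb3bp symbols left out. No measured value entered that rule, but the set was chosen with earlier results of these data known. Of the 55453 genes in the tables they are 18 integrin alpha subunits, 9 integrin beta subunits and 10 laminin chains. Bulk RNA-seq had measured polyadenylated RNA of individual mouse aortae, cleaned of surrounding fat and connective tissue, from mice edited in the promoter of Tspan2. The HDR experiment held 5 wild-type and 5 homozygous sg/sg mutant libraries, in which Cas9 cutting and repair from a single-stranded template had exchanged 3 neighbouring bases within the CArG box, the site bound by serum response factor. The labels give these mice an age of 12 weeks, the strain C57BL/6 and 3 females and 2 males per genotype. The PE2 experiment held 4 wild-type and 4 homozygous peg/peg mutant libraries, in which prime editor 2 (a Cas9 nickase joined to a reverse transcriptase) had made a single C-to-G change within that box. These mice were 8 weeks old, with the strain label FVB/N/B6(Cg)-Tyrc-2J/J, and all were female apart from wild-type replicate 4, a male. According to the methods, embryos of the same 2 strains were edited in both experiments. Founders were then bred to C57BL/6J mice before heterozygotes were intercrossed, so the mutations lie in genomes of mixed origin. The edit is present in every cell of the mutant animals and leaves the Tspan2 coding sequence as it was. The HDR columns carry numbers (2 to 6) that do not match the labels, so HDR libraries are named here by column, WT_2 to WT_6 and Mut_2 to Mut_6.

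Integrins are receptors of the cell surface made of 1 alpha and 1 beta subunit, and they tie the cytoskeleton to the extracellular matrix. Laminins are trimers of 1 alpha, 1 beta and 1 gamma chain that form the scaffold of basement membranes and are themselves ligands of several integrins. In the wall of the aorta, smooth muscle cells are held by both. Tetraspanins, the family to which Tspan2 belongs, gather integrins into membrane microdomains, and several integrin alpha subunits are among their classical partners. The question put to these data was therefore whether the genes of these partners and their laminin ligands differed in aortae that had lost Tspan2 mRNA.

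The edited bases are shown first, followed by the members that hold a CArG box of their own beside an annotated start, since both belong to the same class of element. The forward genotyping primers of the HDR mice end on the edited bases. Capitals mark the 3 bases that differ.
wild-type: cgcgcctactcccagttcttgCCT
edited: cgcgcctactcccagttcttgGTC
Counted from 1 at the 5′ end of the primer, the substitutions are C22G, C23T and T24C. Promoter windows from RefSeq on GRCm38.p6, from 250 bases before to 50 after an annotated start, matched 24 of the 37 members. A CArG box, searched on both strands as its palindromic consensus, occurred in 2 of the 27 windows of these members (7.41%), against 1.63% of all 32851 windows. The 2 windows belong to Lama2 and Itgb6. Their 30-base stretches are given 5′ to 3′ on the strand of the gene, with the box in capitals.
Lama2: aaccaaggacCCTTTAAAGGcccaggcctg
Itgb6: cacctgacttCCTTATAAGGtgaatgagga
The Lama2 stretch lies at chr10:27616962-27616991 on the minus strand, and its box begins 39 bases before the start. The Itgb6 stretch lies at chr2:60673724-60673753 on the minus strand, and its box begins 50 bases before the start. Both of these RefSeq starts lie inside the gene as Gencode gives it. There the 5′ end is at 27619758 for Lama2 and at 60722643 for Itgb6. The boxes are therefore not beside the first start of either gene in that annotation. A match of letters is a description and not a bound site. Neither gene carries the edit.

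Depth was 17290992 to 24880385 counts per library in HDR and 38820265 to 44895615 in PE2 libraries, and the members took 0.64% to 1.36% of them. Levels are given as CPM, counts scaled to a fixed library total after TMM normalization of each experiment alone. Tspan2 itself fell in both experiments, from 209 ± 60.1 CPM (SD, n = 5) to 24.9 ± 8.12 (n = 5) in sg/sg and from 218 ± 45.0 (n = 4) to 19.96 ± 6.74 (n = 4) in peg/peg, with edgeR adjusted p of 0.00226 and 0.0292. It was the only gene that edgeR called in either experiment, which is 0.00609% of 16423 genes tested in HDR and 0.0061% of 16401 in PE2 aortae. DESeq2 called 4 of 42879 genes in HDR and 33 of 17481 in PE2. By qRT-PCR the paper also reported near loss of Tspan2os, an antisense RNA overlapping Tspan2, in peg/peg aorta. Effects of losing either RNA cannot be told apart in these mice. Without peg/peg replicate 3, described next, 2 of 16668 genes were called (0.012%), and neither was a member.

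One PE2 library stood far apart, and it bears on the PE2 comparisons. In peg/peg replicate 3, Itga8 stood at 50.8 CPM, whereas the other 7 PE2 libraries held 2427 to 4027 CPM. Of the 37 members, 11 lay below and 20 above the range of the other 7 PE2 libraries, so that 31 were outside it. For the other 7 PE2 libraries the number of members outside the range of the rest was 3 to 13, and for the 10 HDR libraries it was 1 to 18. Against all 17 other libraries of both experiments, 10 members of this library were still below and 14 above.

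Markers of other tissues moved with it. The 8 epithelial markers summed to 655 CPM in peg/peg replicate 3 against 7.57 to 96.0 CPM in the other 17 libraries, and the 10 skeletal muscle markers to 1201 CPM against 6.70 to 159. The 8 fibroblast markers summed to 8392 CPM against 1887 to 4610, the 10 macrophage markers to 766 against 122 to 643, and the 8 platelet markers to 46.7 against 6.66 to 41.2. Below the others lay the 7 brown fat markers, at 30.8 CPM against 371 to 2575, and the 10 endothelial markers, at 774 against 1081 to 3361. The lymphoid and Schwann cell sums were inside the range. The 9 smooth muscle markers were highest there, at 69048 CPM against 16895 to 46837, and Acta2, smooth muscle actin, was present at 14229 CPM. That sum includes Actg2 (smooth muscle gamma actin) at 8942 CPM and Des (desmin) at 5570. In the other 17 libraries these 2 genes reached at most 1109 and 945 CPM. Genes looked up after this library was noticed included the uroplakins, proteins of the bladder lining. Upk1a stood at 229 CPM against a highest value of 16.6 in the other 17 libraries, and Upk1b at 207 against 30.5. Hoxa13, a homeobox gene of the most caudal body segments, stood at 55.7 CPM against at most 9.36. The epithelial, uroplakin and Hoxa13 values go against the label aorta for this library, and what lies behind them was not tested. Eln, elastin of the arterial wall, stood at 622 CPM against 11617 to 34850 in the other PE2 libraries, but the HDR aortae held 430 to 2915 CPM. Among these, WT_5, WT_6, Mut_5 and Mut_6 held 1763 to 2915 CPM and the rest 430 to 806, and what lies behind this split was not tested. Tspan2 was low in peg/peg replicate 3, at 11.9 CPM, as in the other peg/peg libraries (16.9 to 25.5 CPM). The PE2 comparisons below are therefore given with and without it, and the library is called by its label.

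Some of the same genes were raised, at lower levels, in HDR WT_3. Des (desmin) stood there at 945 CPM against 44.5 to 111 in the other 9 HDR libraries, Actg2 (smooth muscle gamma actin) at 1109 against 88.1 to 192, and Hoxa13 at 9.36 against at most 1.07. Its epithelial markers summed to 96.0 CPM against 7.57 to 60.0, and its skeletal muscle markers to 159 against 6.70 to 92.0. The uroplakins were highest among HDR libraries in Mut_4, with Upk1a at 16.6 and Upk1b at 30.5 CPM, followed by WT_3 at 14.1 and 20.1. The HDR members below the unadjusted threshold are therefore also given without WT_3.

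Below the range of the other 7 PE2 libraries lay 11 members: Itga8 by a factor of 47.7 against the lowest of them, Itga10 by 4.56, Itgb5 by 2.83, Itga7 by 2.82, Lamb2 by 2.80, Lamc3 by 2.53 and Itga9 by 2.03, and Lama5, Itga3, Itgav and Itga2b by 1.11 to 1.42. Npnt (nephronectin), the ligand for which the Itga8 receptor is best known, stood at 25.0 CPM against 1202 to 2015, a gene singled out after its value was seen. Among the 20 above the range was Lamb3, the beta chain of an epithelial laminin, which at 17.5 CPM was 8.51 times the highest of the other 7. Itgb6, an epithelial receptor subunit, was at 4.28 CPM against at most 0.443, and Lama1 was at 4.52 CPM against at most 0.679. The collagen receptor subunits Itga11 (64.8 CPM, 3.94 times the highest of the other 7) and Itga1 (568 CPM, 2.39 times) were also above, as were Lamb1 (282 CPM, 3.00 times) and the fibronectin receptor subunit Itga5 (494 CPM, 1.87 times). The 8 subunits known from leukocytes, Itgb7, Itgae, Itga4, Itgb2, Itgam, Itgad, Itgax and Itgal, stood at 1.04 to 2.06 times the highest of the other 7. The remaining 5 (Itga2, Lama3, Itgb8, Itga6 and Lama4) stood at 1.03 to 1.45 times. Itgb1, the beta subunit shared by most of these receptors, was inside the range at 1983 CPM.

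**Figure D1:**
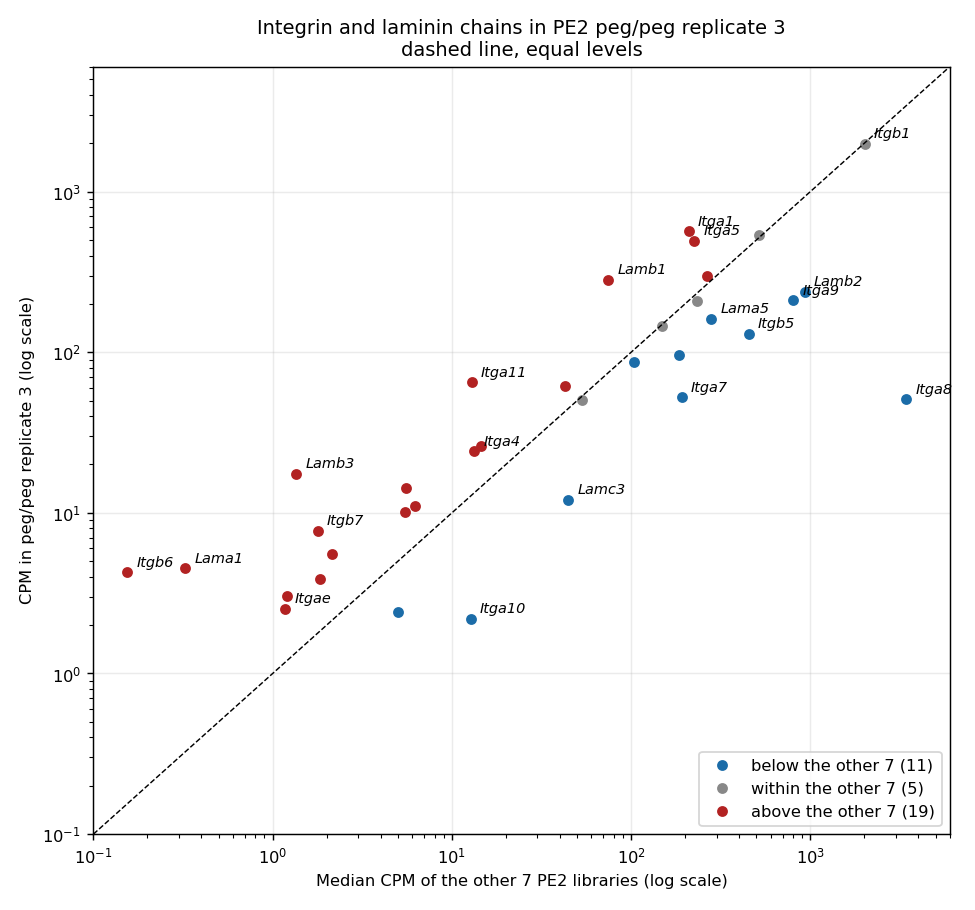
CPM of 35 members in PE2 peg/peg replicate 3 (vertical, log scale) against their median in the other 7 PE2 libraries (horizontal, log scale), with the dashed line at equal levels. Itga8 lies far below the line at 50.8 CPM, Itgb1 lies on it at 1983 CPM, and Itgad and Itgb2l, whose median is 0, are not drawn.

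To set the members beside one another, CPM was divided by the length of the union of annotated exons, and the result is a level in CPM per kb over wild-type aortae. Itga8 led in the HDR wild type at 566 ± 129 CPM per kb (SD, n = 5), followed by Itgb1 at 372 ± 75.5. In the PE2 wild type the order of this pair was the other way round, with Itgb1 at 480 ± 51.1 CPM per kb (n = 4) and Itga8 at 429 ± 96.9, and there their ranges overlapped. With the longest transcript as length, Itga8 led there too, at 543 ± 123 against 513 ± 54.6 CPM per kb. In the HDR wild type they did not overlap, and Itga8 led with either length. Lamb2, the beta chain typical of arterial basement membranes, came next in both at 136 ± 9.39 and 142 ± 29.7 CPM per kb. At 10 CPM per kb or more there were 15 members in the HDR and 13 in the PE2 wild type, and 11 and 14 members stayed under 1 CPM per kb. Most neighbours in this order could not be separated: the ranges of 32 of 36 adjacent pairs overlapped in either wild type.

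**Figure D2:**
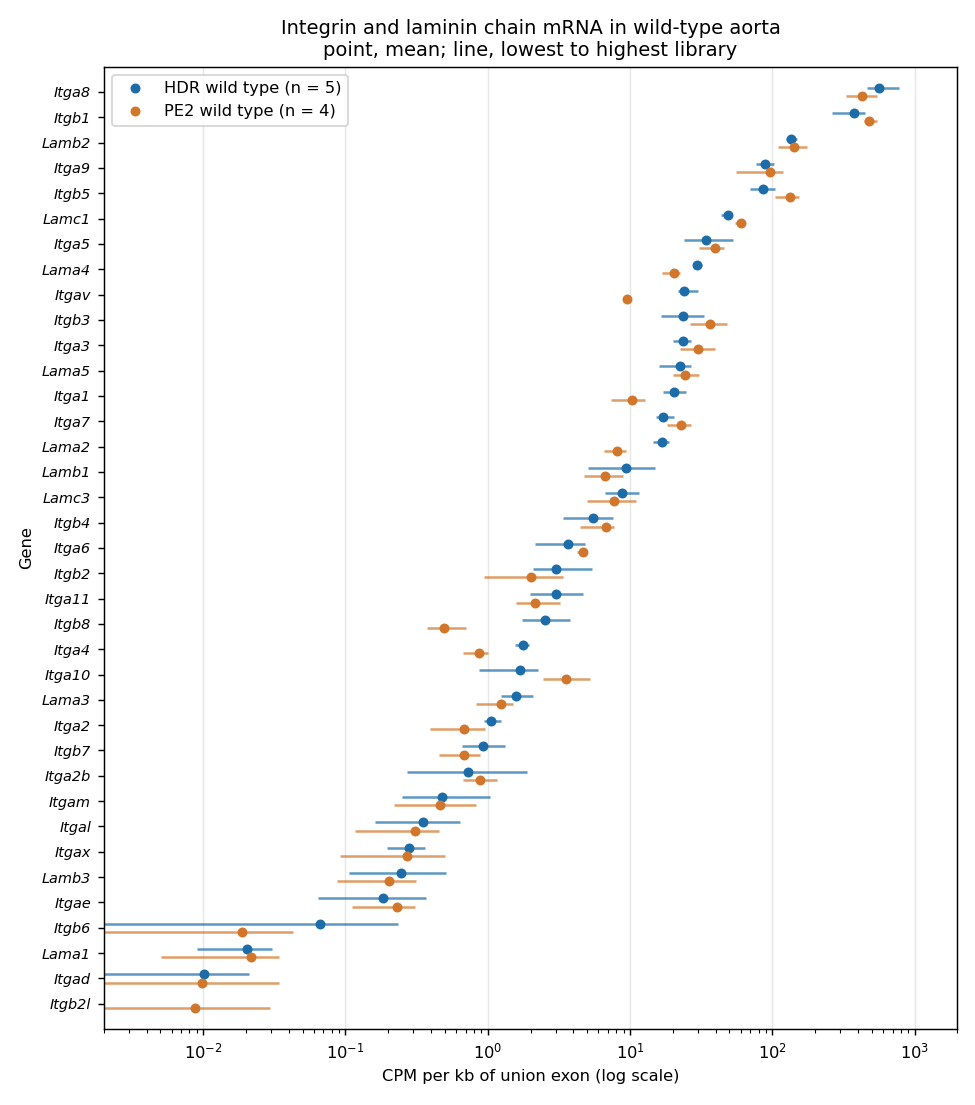
Level of each member in wild-type aorta in CPM per kb of union exon (log scale), ordered by the HDR wild type. Points are means of 5 HDR (blue) and 4 PE2 (orange) libraries, lines run from the lowest to the highest library, lines that touch the left edge reach 0, and Itgb2l, at 0 in all HDR wild-type libraries, has no HDR point. Itga8 and Itgb1 lead in both, with means of 372 CPM per kb or more.

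Among the receptors for the RGD motif, which fibronectin, vitronectin and nephronectin carry, Itga8 was by far the most abundant alpha subunit. It made up 63.2% to 78.2% of the summed level of all 18 alpha subunits per kb in the 17 libraries other than peg/peg replicate 3, and 3.09% in that library. Itga5, the fibronectin receptor subunit, had 34.2 ± 11.4 CPM per kb in the HDR and 39.6 ± 6.64 in the PE2 wild type. Itgav, which pairs with several beta subunits, had 23.9 ± 3.45 and 9.46 ± 0.394 CPM per kb.

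Of the subunits that bind laminin, Itga3 (23.5 ± 2.62 CPM per kb in the HDR wild type) and Itga7 (16.97 ± 1.97), the muscle form, stood above Itga6 (3.69 ± 0.977). Of the 4 collagen receptor subunits, Itga1 stood at 20.4 ± 3.26 CPM per kb, Itga11 at 3.00 ± 1.10, Itga10 at 1.69 ± 0.540 and Itga2 at 1.05 ± 0.122. Itga9, a receptor subunit for tenascin, was the second alpha subunit at 88.7 ± 9.003 CPM per kb.

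Itgb1 supplied 70.9% to 80.0% of the summed beta subunit level per kb in the same 17 libraries. Itgb5 and Itgb3, the partners of Itgav, had 86.5 ± 15.1 and 23.7 ± 7.10 CPM per kb in the HDR wild type, and Itgb4, the hemidesmosome subunit that pairs with Itga6, had 5.51 ± 1.599. The leukocyte subunits were low: Itgb2, shared by the leukocyte adhesion receptors, had 3.01 ± 1.39 CPM per kb, and its partners Itgam, Itgal and Itgax had 0.475 ± 0.317, 0.351 ± 0.205 and 0.278 ± 0.0634. Itga2b, the platelet subunit, had 0.724 ± 0.657.

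Of the summed laminin alpha chain level, Lama4 held 35.1% to 46.8% and Lama5 24.1% to 49.9% in the 17 libraries. Both are the alpha chains that endothelium is known for. Their order depends on the gene length used. In the PE2 wild type Lama4 stood at 20.3 and Lama5 at 24.2 CPM per kb of union exon. With the longest transcript as length these were 40.5 and 24.2. In the HDR wild type the longest transcript gave 59.4 for Lama4, 28.6 for Lama2 and 22.4 for Lama5. Lama2, the chain of muscle and nerve basement membranes, had 16.8 ± 1.59 CPM per kb in the HDR and 8.07 ± 1.37 in the PE2 wild type. Lamb2 made up 89.2% to 97.3% of the beta chains. In peg/peg replicate 3 Lamb2 made up 55.7% of the beta chains. The epithelial chains Lama3 and Lamb3 were low in wild-type aorta, with Lama3 at 1.58 ± 0.335 and Lamb3 at 0.247 ± 0.155 CPM per kb in the HDR wild type.

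At the bottom stood 4 genes near the limit of detection. Itgb2l, a neighbour of Itgb2 in the family, had 0 counts in all 5 HDR wild-type libraries, which allows up to 0.121 to 0.174 CPM per library (3 counts), and 7 counts in all over the 5 sg/sg libraries. Itgad had 5 counts in all over the HDR wild type and 7 over the PE2 wild type. Itgb6 had 50 and 22 counts in all, and Lama1, the laminin chain of the early embryo, had 21 and 35. These limits cover counting error only.

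The 2 wild types can be set side by side but not compared, since they were normalized separately and differ in age, strain label, sex and depth, which cannot be told apart. Their mean CPM differed by at most 1.5-fold for 26 of the 37 members. Itgb8, which pairs with Itgav, stood at 28.0 CPM in the HDR and 5.48 in the PE2 wild type, and Itgav at 256 and 102. Itga10 leaned the other way, at 8.75 and 18.4 CPM. Lama2 stood at 275 and 132 CPM, and Itga1 at 380 and 191. Between libraries of a wild type the members varied with a median coefficient of variation of 22.8% in HDR and 24.9% in PE2 aortae, from 4.17% for Itgav in PE2 to 90.7% for Itga2b in HDR.

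The first comparison asks whether the members differed between sg/sg and wild-type aortae. No member was called by edgeR among the 33 that passed the filter on low counts (Itgad, Itgb2l, Itgb6 and Lama1 did not), and the smallest adjusted p among them was 1. DESeq2 and limma-voom called none either, where they called 0.00933% and 0.00609% of all genes. The log2 fold changes of the members ran from -0.93 to 0.40, with a median of 0.03 beside 0.00 over all genes tested. The median SE was 0.20, and 27 of the 33 lay within 0.5 of zero. By chain, 9 of 17 alpha subunits, 3 of 7 beta subunits and 6 of 9 laminin chains had a fitted value above zero.

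**Figure D3:**
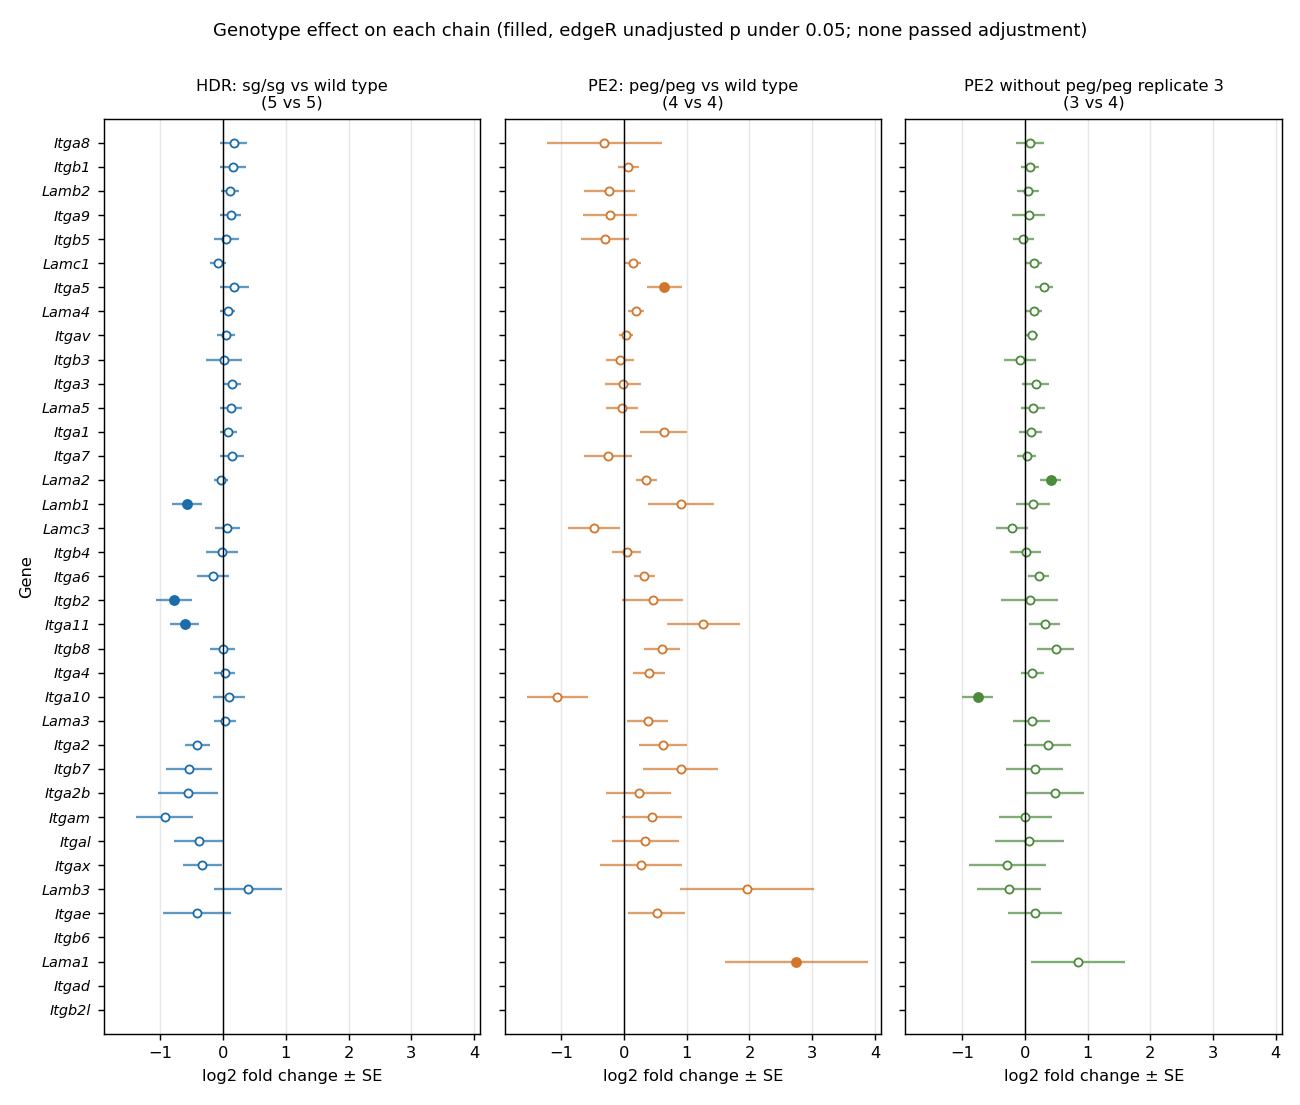
Fitted log2 fold change of each member, mutant against wild type (horizontal, ± SE), in the HDR experiment, in the PE2 experiment and in the PE2 experiment without peg/peg replicate 3. Filled points had an unadjusted edgeR p under 0.05, which 3 members did in HDR and 2 in each PE2 panel, and none passed adjustment. The SE is smaller without the library for 28 of 34 members and larger for 6.

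The 3 genes named as markers of this set behaved alike in the HDR mice. Itgb1 had 1076, 1335, 1834, 1709 and 1639 CPM in WT_2 to WT_6 and 1464, 1546, 1316, 1676 and 2481 in Mut_2 to Mut_6. The groups overlapped, and the log2 fold change was 0.16 ± 0.20 (SE, edgeR adjusted p = 1). Itga8 had 3510, 3408, 5739, 4357 and 3831 CPM in the wild type and 4471, 4646, 3125, 4526 and 6694 in sg/sg. Mut_6 was the highest library for both genes, and the Itga8 log2 fold change was 0.17 ± 0.22 (edgeR adjusted p = 1). Lama5, the alpha chain of the adult endothelial basement membrane, had 304, 289, 237, 265 and 181 CPM in the wild type and 363, 320, 220, 225 and 264 in sg/sg. Its groups overlapped too, with a log2 fold change of 0.12 ± 0.18 (edgeR adjusted p = 1).

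Below the adjusted threshold, 3 members had an unadjusted edgeR p under 0.05 and all 3 were lower in sg/sg, which is 3 of 33 beside 1.63% of all genes in that direction and 0.353% in the other. Itgb2 had 6.43, 9.22, 6.31, 7.54 and 16.5 CPM in WT_2 to WT_6 and 5.35, 4.39, 6.28, 7.29 and 3.46 CPM in Mut_2 to Mut_6. WT_6 stood above all other HDR libraries, and the groups overlapped. The log2 fold change was -0.78 ± 0.29 (edgeR unadjusted p = 0.0212, adjusted p = 1), and the exact two-sided permutation test of the means gave p = 0.0317.

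Itga11, a collagen receptor subunit of fibroblasts, had 10.8, 14.6, 10.1, 17.5 and 23.9 CPM in the wild type and 10.04, 8.78, 8.60, 12.9 and 10.2 CPM in sg/sg. Again WT_6 was the highest, and the log2 fold change was -0.61 ± 0.23 (edgeR unadjusted p = 0.0218, exact permutation p = 0.0635). Lamb1, the laminin beta chain of most tissues, had 74.0, 97.2, 50.6, 96.0 and 147 CPM in the wild type and 69.6, 59.9, 74.2, 64.3 and 45.0 CPM in sg/sg. Its log2 fold change was -0.57 ± 0.24 (edgeR unadjusted p = 0.0368, exact permutation p = 0.0873).

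Without WT_3, Itgb2 at -0.78 ± 0.33 and Itga11 at -0.63 ± 0.25 still had an unadjusted edgeR p under 0.05 (2 of 33, beside 1.54% of all genes on the lower side), and Lamb1 at -0.56 ± 0.27 did not.

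Whether these 3 passed the unadjusted threshold depended on single libraries. The count was 1 without Mut_6, beside 164 of 16731 genes on the lower side. It was 2 without WT_5 or Mut_3, beside 236 of 16678 and 178 of 16659 genes. Without WT_6 no member had an unadjusted p under 0.05, beside 0.863% of all genes on the lower side. The log2 fold changes were still below zero there, at -0.46 ± 0.23 for Itgb2, -0.39 ± 0.19 for Itga11 and -0.34 ± 0.20 for Lamb1. Several marker lists moved with the same library, the macrophage list most often past the unadjusted threshold. Of the 10 macrophage markers, 9 had an unadjusted edgeR p under 0.05 and were lower in sg/sg, with a median log2 fold change of -0.73, and 2 did so without WT_6, with a median of -0.41. Their summed CPM was 251.9, 361, 274, 364 and 643 in WT_2 to WT_6 and 186, 241, 253, 314 and 207 in Mut_2 to Mut_6. Of the other lists, WT_6 was also the highest HDR library for brown fat (2000 CPM against 371 to 1694), Schwann cell (316.4 against 153 to 276) and lymphoid markers (20.5 against 2.94 to 15.7), and its fibroblast sum of 3977 CPM was exceeded by Mut_5 alone. In bulk RNA fewer cells of a type and less RNA per cell cannot be told apart, and the part of macrophages or of these other cells in the member values was not tested. Itgam, the macrophage partner of Itgb2, had 5.20 CPM in WT_6 and 1.26 to 1.97 in the other wild-type libraries.

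**Figure D4:**
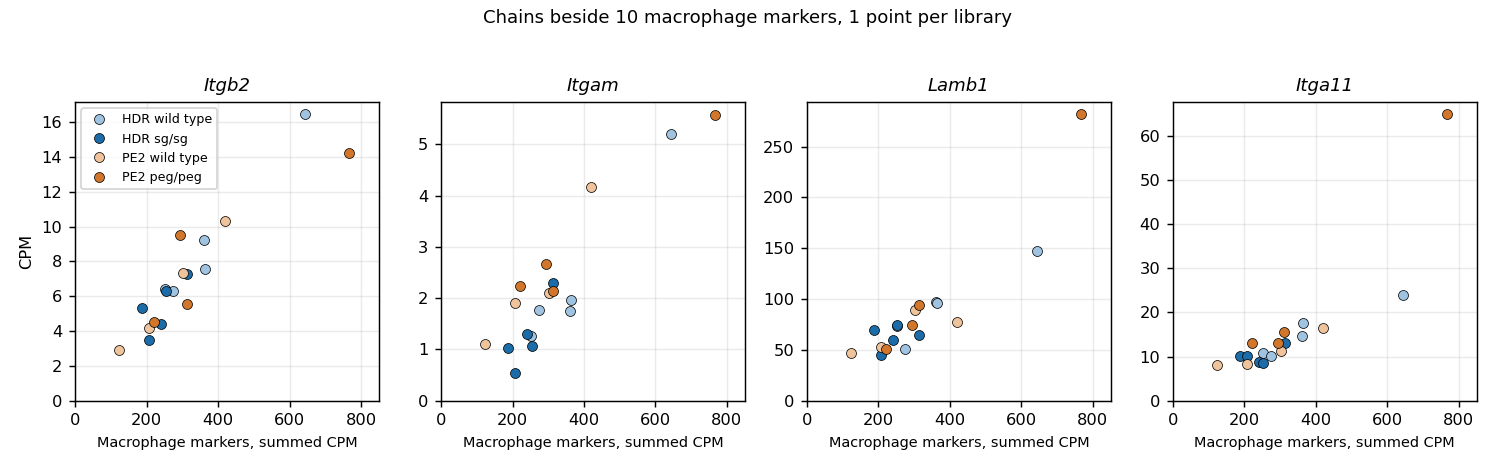
CPM of Itgb2, Itgam, Lamb1 and Itga11 (vertical) against the summed CPM of 10 macrophage markers (horizontal) in all 18 libraries, 1 point per library, coloured by group. The 2 rightmost points are HDR WT_6 at 643 CPM and PE2 peg/peg replicate 3 at 766 CPM, which also hold the 2 highest values of each gene.

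No member had groups that lay wholly apart in the HDR experiment (0 of 33), beside 0.122% of all genes with every sg/sg library above every wild-type library and 0.195% below.

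The second comparison asks the same of peg/peg against wild-type aortae. No member was called by edgeR among the 34 tested (Itgad, Itgb2l and Itgb6 did not pass the filter), with a smallest adjusted p of 0.861. DESeq2 and limma-voom called none either, where they called 0.189% and 0.0061% of all genes with all libraries and 0.51% and 0.012% without peg/peg replicate 3. With all libraries the log2 fold changes of the members ran from -1.06 to 2.75 with a median of 0.30 beside 0.01 over all genes tested. Without peg/peg replicate 3 they ran from -0.75 to 0.85 with a median of 0.11 beside -0.01, the median SE fell from 0.39 to 0.25, and the smallest adjusted p was 0.989. A fitted value above zero was found for 24 of 34 members with all libraries, beside 52.2% of all genes, and for 28 of 34 without that library, beside 46.8%. Then 32 of 34 lay within 0.5 of zero.

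Itgb1 had 1797, 2230, 2009 and 1792 CPM in wild-type replicates 1 to 4 and 2276, 1888, 1983 and 2086 in peg/peg replicates 1 to 4. The groups overlapped, and the log2 fold change was 0.07 ± 0.17 with all libraries and 0.08 ± 0.14 without peg/peg replicate 3 (edgeR adjusted p = 0.936 and 0.989). Itga8 had 2427, 4027, 3427 and 2750 CPM in the wild type and 3879, 2665, 50.8 and 3575 in peg/peg. The log2 fold change was -0.31 ± 0.92 with all libraries and 0.09 ± 0.22 without peg/peg replicate 3, so 1 library set both its sign and its error. Lama5 had 230, 244, 347 and 280 CPM in the wild type and 335, 233, 162 and 345 in peg/peg, and its log2 fold change went from -0.04 ± 0.26 to 0.13 ± 0.19 when peg/peg replicate 3 was left out.

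With all libraries, 2 members had an unadjusted edgeR p under 0.05 and both were higher in peg/peg, which is 2 of 34 beside 3.04% of all genes in that direction and 1.27% in the other. Lama1 had 0.127, 0.326, 0.331 and 0.0490 CPM in the wild type and 0.679, 0.331, 4.52 and 0.130 in peg/peg. Its log2 fold change of 2.75 ± 1.14 (edgeR unadjusted p = 0.0417, exact permutation p = 0.143) came to 0.85 ± 0.75 (edgeR unadjusted p = 0.292) without peg/peg replicate 3. Itga5 had 193, 214, 225 and 151 CPM in the wild type and 234, 231, 494 and 264 CPM in peg/peg, so the groups lay apart. Its log2 fold change was 0.65 ± 0.27 (edgeR unadjusted p = 0.0441, exact permutation p = 0.0286, the smallest that 4 against 4 allows) and 0.31 ± 0.15 (edgeR unadjusted p = 0.0704) without peg/peg replicate 3.

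Without peg/peg replicate 3, 1 member was higher and 1 lower at an unadjusted edgeR p under 0.05, which is 1 of 34 in either direction beside 2.19% and 1.91% of all genes. The higher member was Lama2, one of the 2 members with a CArG box printed above, which lies beside a start inside the Gencode gene. It had 152, 118, 108 and 149 CPM in the wild type and 201, 185, 145 and 144 in peg/peg, with replicate 3 inside the wild-type range. Its log2 fold change was 0.41 ± 0.17 (edgeR unadjusted p = 0.0382) without and 0.35 ± 0.16 (edgeR unadjusted p = 0.063) with that library, both with an exact permutation p of 0.171, and -0.03 ± 0.11 in the HDR experiment.

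The lower member was Itga10, a collagen receptor subunit of cartilage and connective tissue. It had 12.7, 17.2, 27.3 and 16.4 CPM in the wild type and 10.01, 12.1, 2.20 and 10.97 CPM in peg/peg, and the groups lay apart with and without peg/peg replicate 3. The log2 fold change was -1.06 ± 0.49 with all libraries (edgeR unadjusted p = 0.0595, exact permutation p = 0.0286) and -0.75 ± 0.25 without that library (edgeR unadjusted p = 0.0168, adjusted p = 0.989, exact permutation p = 0.0571, the smallest that 4 against 3 allows). In the HDR experiment the groups overlapped, at 4.48 to 11.6 CPM in the wild type and 6.97 to 12.9 in sg/sg. Itga10 is also the only member on chromosome 3, where it lies 6.07 Mb from Tspan2 (chr3:96645584-96664519 on GRCm38). Whether the strain of origin of this stretch differed between the genotypes was not tested.

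Groups that lay apart were thus seen for 2 of 34 members in the PE2 experiment, Itga5 higher and Itga10 lower. The share of all genes was 1.43% higher and 1.1% lower with all libraries, and 2.71% and 2.51% without peg/peg replicate 3, when the same 2 members lay apart.

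**Figure D5:**
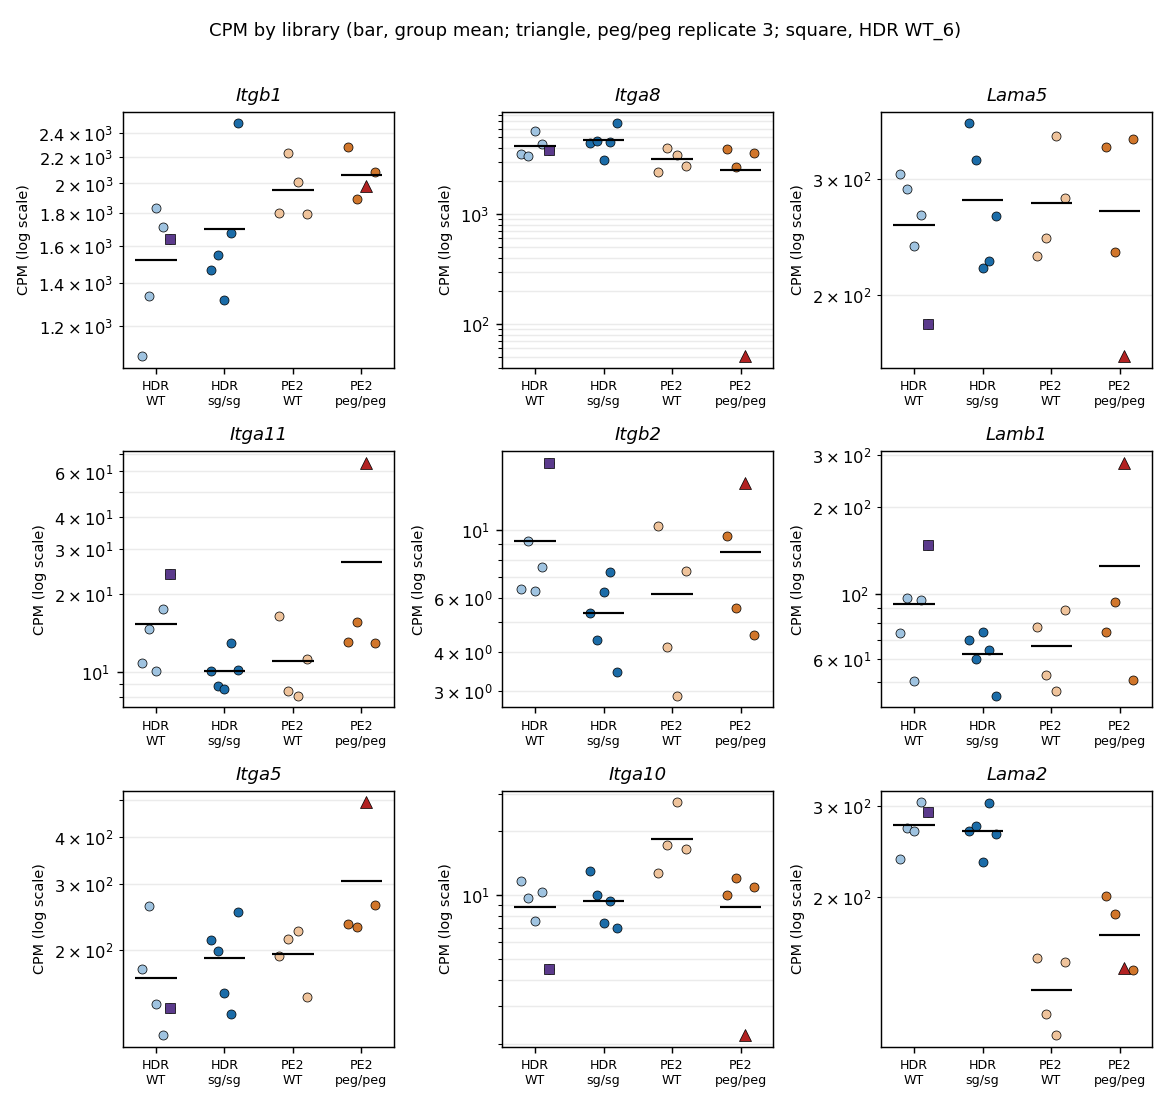
CPM (log scale) of 9 members in every library, by group, with the group mean as a bar, PE2 peg/peg replicate 3 as a red triangle and HDR WT_6 as a purple square. The triangle is the lowest point for Itga8, Lama5 and Itga10 and the highest for Itga11, Lamb1 and Itga5, and it lies within the wild-type range for Lama2. The square is the highest HDR point for Itga11, Itgb2 and Lamb1.

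The difference between the 2 genotype effects was tested as an interaction over all 18 libraries. The experiments differ in edit, age, strain label, sex and depth, which cannot be told apart in this test. No member passed adjustment, nor did any of the 18094 genes (0%). At an unadjusted edgeR p under 0.05 stood 5 of 35 members, beside 5.13% of all genes: Itga11, Itga2, Itgb2 and Lamb1 with a higher effect in PE2, and Itga10 with a lower one. Without peg/peg replicate 3 the number was 3 of 35 beside 3.28% of 18333 genes, of which 0% passed adjustment. They were Itga11 with a log2 difference of 0.91 ± 0.35, Lama2 with 0.44 ± 0.20 and Itga10 with -0.85 ± 0.39. Without WT_6, 3 of 35 members were under that p, all with a higher effect in PE2, beside 613 higher and 196 lower of 17929 genes. Itga10 was then not among them. No member had a lower effect at that p without Mut_2, Mut_3, WT_4 or Mut_5 either, nor without PE2 wild-type replicate 2 or 3.

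Genes of the wider pathway were read from 4 lists. At an unadjusted edgeR p under 0.05 stood 0.353% of all genes higher and 1.63% lower in HDR. In PE2 these shares were 3.04% and 1.27%, and 2.19% and 1.91% without peg/peg replicate 3. A single gene on a list is not read as a result about the list. Of 30 cytoplasmic adaptors that join integrins to actin, 29 were tested and none was called in either experiment. At an unadjusted p under 0.05 stood Fermt3, the kindlin of blood cells, in HDR (log2 fold change -0.65 ± 0.24) and Tns3, a tensin of focal adhesions, in PE2 (0.54 ± 0.17). Tns3 was still under that p at 0.46 ± 0.17 without peg/peg replicate 3, and Fermt3 was not without WT_6 (-0.49 ± 0.24) or without WT_3 (-0.53 ± 0.26). Of 30 other integrin ligands, 24 were tested and none was called. The bone sialoprotein gene Ibsp was low in both HDR groups, at 0.491 to 1.76 CPM in sg/sg against 0.246 to 0.507 in the wild type. Its unadjusted p was under 0.05. At such levels a gene can pass the low-count filter through its higher group alone, so this p is not read as a difference. Cdh1, the epithelial ligand of the Itgae receptor, reached 59.4 CPM in peg/peg replicate 3, and its log2 fold change of 4.21 ± 1.55 came to 0.47 ± 0.54 without it. Without that library 2 other ligands were higher and 1 lower at an unadjusted p under 0.05, all named after their values were seen. Ccn1, a matricellular protein, had 615 to 890 CPM in peg/peg against 39.5 to 252 in the wild type, so the groups lay apart, and its log2 fold change was 2.42 ± 0.59 (edgeR adjusted p = 0.754). In peg/peg replicate 3 itself Ccn1 was at 40.2 CPM. Ccn2, of the same family, had a log2 fold change of 1.48 ± 0.48 with overlapping groups, and Egfl7, an endothelial ligand, one of -0.28 ± 0.10.

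All 28 basement membrane partners of laminins, such as nidogens, collagen IV chains and the dystroglycan complex, were tested. None was called, and none had an unadjusted p under 0.05 in either experiment with all libraries. Their median log2 fold change was 0.03 in HDR, -0.05 in PE2 and 0.10 in PE2 without peg/peg replicate 3, when Utrn (utrophin, 0.47 ± 0.15) and Sgcd (delta-sarcoglycan, 0.35 ± 0.13), named after their values were seen, were higher at an unadjusted p under 0.05. Of 11 tetraspanins known as integrin partners, 10 were tested in HDR and 11 in PE2, and Tspan2 was the only one called. Tspan8, an epithelial tetraspanin, reached 56.5 CPM in peg/peg replicate 3, and its log2 fold change of 4.22 ± 1.63 came to 0.40 ± 0.71 without that library. The genes of the other tetraspanins on the list had no unadjusted p under 0.05 with all libraries or without peg/peg replicate 3.

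Markers of other cell types were read as values beside the members, and no marker was called in either experiment. In HDR, 5 of 9 skeletal muscle markers tested were higher and 1 of 8 fibroblast markers lower at an unadjusted edgeR p under 0.05, beside the 9 macrophage markers given above. The smooth muscle, endothelial, lymphoid, platelet, epithelial, Schwann cell and brown fat lists held 0 such genes in HDR. Without WT_3 the skeletal muscle count was 7 of 9. In PE2, 5 of 7 epithelial, 3 of 9 skeletal muscle, 1 of 9 smooth muscle and 1 of 8 fibroblast markers were higher, and 3 of 13 lymphoid and 1 of 10 endothelial markers lower. Without peg/peg replicate 3 the epithelial, skeletal muscle, smooth muscle and fibroblast lists held 0 such genes, while 4 of 14 lymphoid and 3 of 10 endothelial markers were lower. Over all genes the shares were 0.353% higher and 1.63% lower in HDR, and 74 of 16618 genes were higher without WT_3. In PE2 they were 3.04% and 1.27%, and 2.19% and 1.91% without peg/peg replicate 3. A single marker on a list is not read as a result about the list. The part of these cell types in the member values was not tested.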

How the data were processed

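Bulk RNA-seq of mouse aorta was analysed in 18 libraries. Per the labels and methods, the authors trimmed reads with fastp, aligned them with STAR 2.7.0f to GRCm38 and deposited raw counts per gene symbol from featureCounts (Subread 1.6.4). They also deposited those counts divided by DESeq2 1.22.1 size factors, not used here. The strand setting is not stated, and labels and methods differ on kit and read length. Reads of overlapping or antisense genes can therefore not be separated.

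Each experiment was fitted alone with edgeR 4.0.16 in R 4.3.3 (filterByExpr, TMM, glmQLFit, glmQLFTest on genotype, Benjamini-Hochberg over all tested genes, threshold 0.05). The interaction was fitted over all 18 libraries in 4 groups. Single CPM values were compared by exact permutation over libraries (two-sided), for which the smallest p is 0.00794 for 5 against 5, 0.0286 for 4 against 4 and 0.0571 for 4 against 3. DESeq2 1.42.0 and limma 3.58.1 (voom) were alternatives, with no filter, robust dispersions, a minimum of 10 counts per library, DESeq2 size factors, sex, the replicate number as a block, females alone, an adjusted p under 0.10, the longest transcript as gene length, and each library left out in turn. DESeq2 and limma-voom fits without peg/peg replicate 3, and a DESeq2 fit without WT_6, were added after seeing the data. Genes to which DESeq2 gave no adjusted p were not counted. On simulated counts with a change of 2 on the log2 scale, edgeR recovered 91.0% of changed genes in an HDR and 76.0% in a PE2 design, and with a change of 1 it recovered 59.0% and 33.0%.

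Of the genes matched by symbol, 1 is not reported here and enters no count of members. The members and lists were chosen with earlier results of these data known. Values in every library are given for Itgb1, Itga8 and Lama5, for members with an unadjusted p under 0.05 and for members whose groups lay apart. By the rule set for the pathway lists, at most 4 genes per list are named, those with the smallest edgeR p under 0.05 with all libraries. Npnt, Ccn1, Ccn2, Egfl7, Utrn and Sgcd were named outside this rule, after their values were seen. Lama2, Itgam and the tissue genes other than list sums were chosen after their values were seen. The lists, from general knowledge, were integrin adaptors, integrin ligands, basement membrane partners and tetraspanins, and 10 sets of cell type markers. Positions and exon lengths came from Gencode M21 on GRCm38. No 2 libraries of a group agreed within counting noise, with a lowest chi-square per degree of freedom of 15.6. Nothing in the labels says that replicates came from separate litters, so p-values measure the spread between these animals. Columns with values of no known sample numbered 0.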

Additional observations from a re-analysis of the deposited data

Results flagged for a closer look

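A library was set apart by its gap in CPM to the nearest other library, divided by the range of its group. This ratio had to exceed Dixon's critical value for groups of 4 or 5 libraries. Of 134 combinations of a tested member and a group, 12 were set apart in this way. The critical value is set for about 1 in 20 under independent normal values. Members measured in the same library are not independent, so the 12 cannot be read against that rate. On the CPM scale a low value has less room to stand apart than a high one. Itga8 in peg/peg replicate 3, at 50.8 CPM against 2665 to 3879 in the other peg/peg libraries, was not set apart. Of the 12, 6 belonged to PE2 peg/peg replicate 3, all as the highest of its group: Itga1 at 568 CPM, Itga5 at 494, Itga11 at 64.8, Lamb3 at 17.5, Itgam at 5.58 and Lama1 at 4.52. In the HDR wild type, WT_6 was highest for Itgb2 at 16.5 CPM and for Itgam at 5.2 CPM, WT_3 for Itga2b at 10.3 CPM and WT_4 for Itgav at 322 CPM, and WT_5 was lowest for Lamc1 at 359 CPM. In the PE2 wild type, replicate 2 was lowest for Itgb4 at 31.2 CPM. No member had an adjusted p under 0.05 in the test of the difference between the genotype effects of the HDR and PE2 experiments. By edgeR, 5 members had an unadjusted p under 0.05 there.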

How the results depend on the processing

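The count of members called stayed at 0 under every alternative run, in the HDR, PE2 and interaction fits, an adjusted p under 0.10 included. Counts of members at an unadjusted p under 0.05 did move. For HDR (3 members, all lower) the count was 5 with no filter (4 lower, 1 higher) and 0 by DESeq2 without WT_6. It was 0 to 5 when 1 library was left out, with 0 without WT_6, 1 without Mut_6 and 5 without Mut_5. For PE2 (2 members, both higher) the count was 4 by DESeq2 (3 higher, 1 lower) and 5 with no filter (4 higher, 1 lower). By limma-voom it was 1, a lower member, so neither of the 2 higher ones was kept. With 10 counts in every library, with sex as a covariate and in females alone it was 1, a higher member. It was 0 to 5 when 1 library was left out, with 0 without wild-type replicate 2 or 3, 1 without wild-type replicate 1 or 4, and 5 without peg/peg replicate 1 or 4. For the interaction (5 members) it was 3 to 8 when 1 library was left out, the lowest on leaving out any 1 of Mut_2, Mut_3, WT_6, PE2 wild-type replicates 2 and 3 and the third peg/peg library, and the highest on leaving out the fourth peg/peg library. The same PE2 replicate numbers did not pair the libraries (correlations of deviations -0.0462, -0.184, -0.0361 and -0.254), and with the replicate number as a replicate block 2 members had an unadjusted p under 0.05 and 0 were called. For single members, 12 settings changed the sign of a log2 fold change, none of them called. Itga8 in PE2 ran from -0.59 to 0.088 when 1 library was left out, with 0.088 by edgeR and 0.097 by DESeq2 and limma-voom without peg/peg replicate 3. Lama5 in PE2 ran from -0.19 to 0.13 and came to 0.13 by edgeR and limma-voom and 0.14 by DESeq2 without that library, 0.090 without wild-type replicate 3 and 0.021 without peg/peg replicate 2. Itga10 in HDR ran from -0.072 to 0.22, at -0.048 without Mut_2 and at -0.072 by edgeR and -0.061 by DESeq2 without WT_6. Itgb1 in HDR ran from -0.011, without Mut_6, to 0.24. With the longest transcript as length, 16 members reached 10 CPM per kb in either wild type.

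In a simulated PE2 design of 4 against 4 libraries, edgeR recovered a change of 1 on the log2 scale in 33.0% of genes. The changed genes had mean levels above 1 CPM, and the simulated spread included peg/peg replicate 3. The figure therefore does not cover the fit without that library or the members of low level. With 3 to 5 libraries per group, a p that misses the threshold does not show equal levels. The PE2 errors were set largely by 1 library whose markers went against its tissue label. Genotype cannot be told apart from litter, and in PE2 the only male was wild type. The HDR columns were not tied to the labels' sex, because their numbers do not match, so sex did not enter the HDR fit.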
